A study of Mus musculus with 6 samples.

Results

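TRBV14, TRBV15, TRBV16 and TRBV17 are 4 neighbouring variable genes of the mouse T cell receptor (TCR) β locus. Their use was examined in CD4 T cells that bind a peptide of the retinal protein IRBP, called P2, on the MHC class II molecule I-Ab. Members were all productive TRB contigs (assembled in-frame β transcripts) whose V gene was one of the 4, which gave 94 of the 1119 productive TRB contigs in 3 libraries. There were 7 contigs of TRBV14, 47 of TRBV15, 33 of TRBV16 and 7 of TRBV17. These lay in 93 cells, since 1 cell held both a TRBV15 and a TRBV16 contig. Of the 94 contigs, 79 were the leading TRB of a cell that also had a productive TRA (a paired cell), 14 were in cells with no productive TRA, and 1 was the weaker of a paired cell's TRB contigs.

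The P2 tetramer-binding CD4 T cells came from lymph nodes of AireGW/+ Lyn-/- mice at 9 wk of age, which in both conditions carry the GW mutation in 1 allele of Aire, a regulator of self-antigen expression in the thymus, and lack the tyrosine kinase Lyn. They were enriched on magnetic beads, sorted and sequenced in droplets. The 2 uveitis libraries (dataset 1 and dataset 2) came from pools of 7 and 8 mice, and which pool gave which library is not settled. The library without uveitis came from 1 pool of 16 mice. Each pool is 1 sample and cells of a pool cannot be assigned to a mouse, so the conditions were not tested against each other. An exact permutation test of 2 pools against 1 can give no p below 0.333. The paired cells numbered 176, 324 and 470, in 138, 142 and 411 distinct clonotypes (groups of cells whose α and β chains both match in V gene, in J gene and in the nucleotides of CDR3). Intervals in parentheses are exact Clopper-Pearson 95% intervals, and they cover counting error only. Dataset 2 and the library without uveitis shared 1 cell barcode, which was not in a cell with a member contig, and the other pairs of libraries shared 0.

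A TCRβ chain is made by joining a V, a D and a J gene segment. The V gene alone encodes the first and second loops that touch the MHC molecule, whereas the third loop, CDR3β, spans the V-D-J junction and usually lies over the peptide. Bases are trimmed from the gene ends and untemplated bases are added at the joins, so CDR3β differs between clones that use the same V gene. CD4 T cells pair such a β chain with a TCRα chain made from TRAV and TRAJ segments. In this assay the labelled cell type can be checked only by the chains. The invariant α chain of iNKT cells or of MAIT cells was in 0 of the 79 paired cells (up to 3.80% allowed by a count of 0). Of the 278 contigs of all member cells, 2 were assigned to γ or δ chains and 3 to immunoglobulin heavy chains, all 5 on 1 UMI and none productive. A further 2 contigs, in cells without uveitis, joined the δ variable gene TRDV1 to the constant gene of the α chain, and 1 of these was productive, on 8 UMIs. CD4 itself was not measured in these libraries.

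In the GENCODE annotation of GRCm38 the genes lie on the plus strand at chr6:41135145-41135616 (TRBV14), chr6:41141188-41141658 (TRBV15), chr6:41151740-41152230 (TRBV16) and chr6:41163062-41163556 (TRBV17). Each has a leader exon and a V exon. TRBV13-3 lies upstream, and the pseudogene TRBV18 and the gene TRBV19 lie downstream. The gaps between the 4 genes were 5571, 10081 and 10831 bases, and TRBV17 ends 370307 bases before the first TRBJ1 segment. The V exons of TRBV15 and TRBV16 were the most alike of the 4, with 72.2% identical aligned bases, and the other pairs of members shared 45.6 to 62.1%. TRBV14 to TRBV17 carry the older names Tcrb-V13, Tcrb-V12, Tcrb-V11 and Tcrb-V9 in RefSeq.

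The germline 3′ ends of the genes are shown because they set how each CDR3β begins. Each starts at the conserved cysteine codon, in capitals, which is the first codon of CDR3β, and runs to the end of the annotated V exon.
TRBV14: TGTgccagcagtttct
TRBV15: TGTgccagcagtttagc
TRBV16: TGTgcaagcagcttaga
TRBV17: TGTgctagcagtagaga
Read in whole codons, TRBV14 encodes CASSF, TRBV15 and TRBV16 encode CASSL and TRBV17 encodes CASSR. The bases left over in TRBV16 and TRBV17 start a codon for glutamate or aspartate, so an untrimmed TRBV16 end gives CASSLE or CASSLD.

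TRBV15 was the leading member in both uveitis libraries and TRBV16 in the library without uveitis. TRBV15 was in 16 of 176 paired cells of dataset 1, or 9.09% (5.29 to 14.3%). In dataset 2 it was in 8 of 324, or 2.47% (1.07 to 4.81%), and without uveitis in 13 of 470, or 2.77% (1.48 to 4.68%). The interval of dataset 1 did not overlap those of the other libraries, whereas dataset 2 and the library without uveitis could not be told apart. The mean of the uveitis libraries was 5.78% ± 4.68 (SD, n = 2 pools), and its distance of 3.01 percentage points from the library without uveitis was smaller than that SD.

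Counted by clonotypes, the TRBV15 shares were closer. TRBV15 was in 10 of 138 clonotypes of dataset 1 (7.25%, 3.53 to 12.9%), in 5 of 142 of dataset 2 (3.52%, 1.15 to 8.03%) and in 13 of 411 without uveitis (3.16%, 1.70 to 5.35%), and all 3 intervals overlapped. A single clonotype of 7 cells made up much of the difference by cells. Without it, TRBV15 took 9 of 169 cells of dataset 1, or 5.33% (2.46 to 9.87%), which overlapped the other libraries. TRBV15 was the third most frequent of 20 TRBV genes by cells of dataset 1, and it ranked 11 of 17 in dataset 2 and 14 of 21 without uveitis. By clonotypes it ranked 6 of 20 (tied), 10 of 17 (tied) and 13 of 21.

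TRBV16 was highest in the library without uveitis, where it was in 22 of 470 paired cells, or 4.68% (2.96 to 7.0%). Dataset 1 had 5 such cells (2.84%, 0.929 to 6.51%) and dataset 2 had 3 (0.926%, 0.191 to 2.68%). By cells, dataset 2 and the library without uveitis had separate intervals, while dataset 1 overlapped both. Without the largest member clonotype of each library, dataset 2 (0.938%, 0.194 to 2.72%) and the library without uveitis (4.27%, 2.63 to 6.52%) overlapped too. By clonotypes the shares were 5.11% (3.19 to 7.71%, 21 of 411) without uveitis, 3.62% (1.19 to 8.25%) in dataset 1 and 2.11% (0.438 to 6.05%) in dataset 2, and all intervals overlapped. T cells with this gene are known to be removed by endogenous superantigens in mouse strains that express the class II molecule I-E. The paper describes the mice used here as made from C57BL/6 mice, and P2 binding was read on I-Ab. I-E was not examined, and a link between such removal and the shares above was not tested.

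TRBV14 and TRBV17 were rare. TRBV14 was in 1, 0 and 5 paired cells of dataset 1, dataset 2 and the library without uveitis, or 0.568% (0.0144 to 3.13%), 0% and 1.06% (0.346 to 2.47%). The 0 of 324 cells of dataset 2 allows a share of up to 0.926%. TRBV17 was in 1, 1 and 4 paired cells, or 0.568, 0.309 and 0.851%, and was the least used of the 21 TRBV genes seen without uveitis. For both genes the intervals of all 3 libraries overlapped, by cells and by clonotypes.

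**Figure D1:**
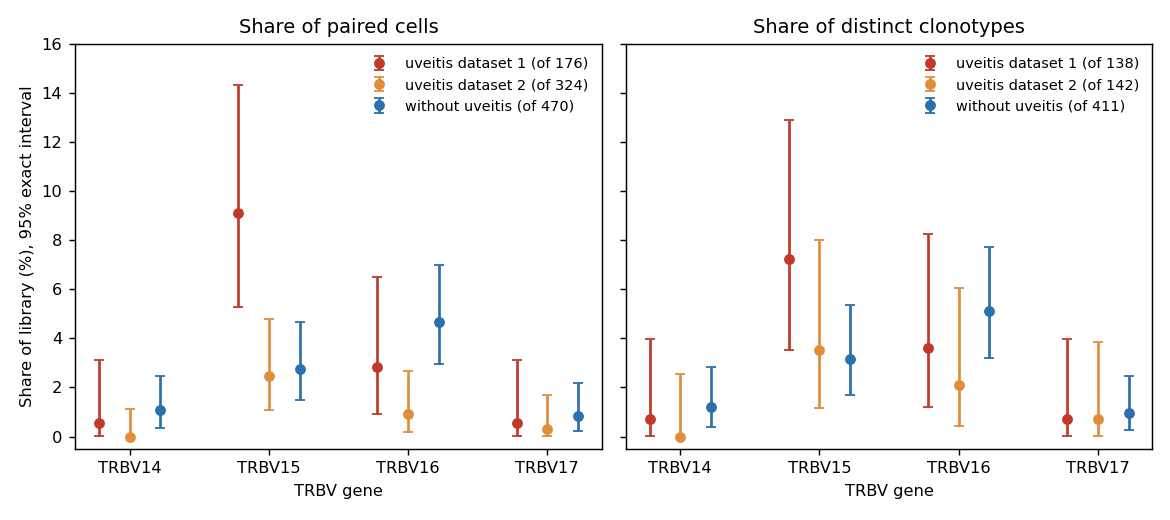
Share (%) of the paired cells (left) and of the distinct clonotypes (right) of each library that used TRBV14, TRBV15, TRBV16 or TRBV17. Points are the shares and bars the exact 95% intervals. TRBV15 in dataset 1 stands above the other libraries by cells (9.09% against 2.47 and 2.77%), and its interval overlaps theirs by clonotypes.

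Together the 4 genes took 23 of 176 paired cells of dataset 1 (13.1%, 8.47 to 19.0%), 12 of 324 of dataset 2 (3.70%, 1.93 to 6.38%) and 44 of 470 without uveitis (9.36%, 6.89 to 12.4%). By clonotypes these shares were 12.3, 6.34 and 10.5%. The library without uveitis lay between the uveitis libraries, which differed from each other by 9.37 percentage points by cells.

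Among the other TRBV genes, the pattern of clonotype shares most like that of each member was found by the smallest sum of absolute differences over the 3 libraries. For TRBV15 it was TRBV13-3 (5.07, 3.52 and 4.87% of clonotypes, a sum of 3.88 points), and for TRBV16 it was TRBV1 (4.35, 2.82 and 4.87%, a sum of 1.67 points). TRBV30 was closest to TRBV14 and TRBV12-2 to TRBV17, with sums of 0.725 and 0.487 points between genes seen in few clonotypes.

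Of the 69 member clonotypes, 3 were expanded, that is, found in more than 1 cell: 1 TRBV15 clonotype in each uveitis library and 1 TRBV16 clonotype without uveitis. No TRBV14 or TRBV17 clonotype was seen in more than 1 cell, but these rest on 6 paired cells each. Expanded clonotypes held 7 of the 23 member cells of dataset 1, or 30.4% (13.2 to 52.9%), against 28.8% (21.7 to 36.6%) of the cells with all other TRBV genes. In dataset 2 they held 4 of 12, or 33.3% (9.93 to 65.1%), against 68.6% (63.1 to 73.7%). Without uveitis they held 2 of 44, or 4.55% (0.555 to 15.5%), against 18.3% (14.7 to 22.3%). The member share was the lower in dataset 2 and without uveitis, but the intervals overlapped in each of the 3 libraries.

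**Figure D2:**
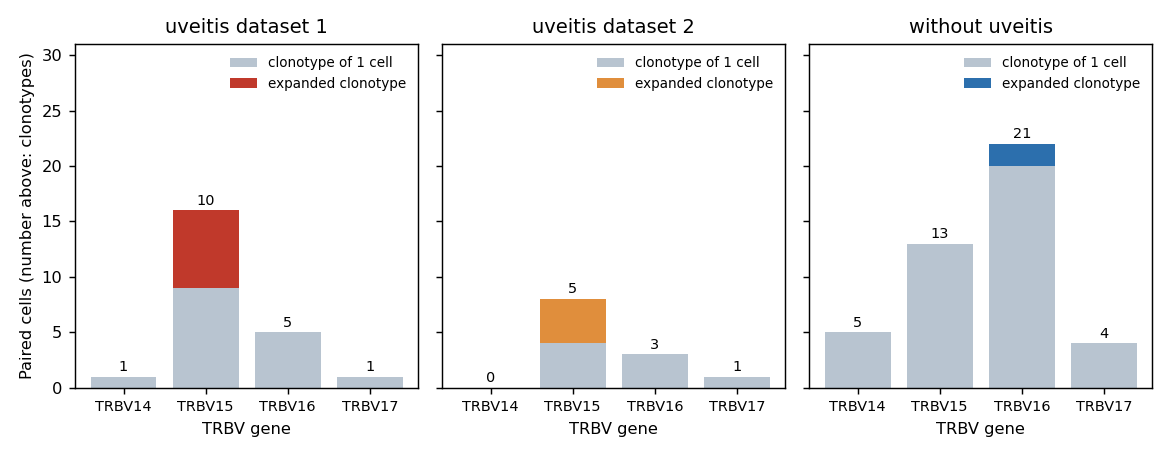
Paired cells of each member gene in each library, split into cells of expanded clonotypes (coloured) and of clonotypes seen in 1 cell (grey), with the number of clonotypes above each bar. The expanded cells are 7 of 16 TRBV15 cells in dataset 1, 4 of 8 TRBV15 cells in dataset 2 and 2 of 22 TRBV16 cells without uveitis.

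The expanded clonotypes and the β chains they use are shown by the nucleotides of CDR3β, from the cysteine codon to the last codon of CDR3β. Capitals mark the bases between the longest match to germline V and the longest match to germline J, that is, D bases and untemplated bases.
TRBV15-TRBJ2-3, dataset 1: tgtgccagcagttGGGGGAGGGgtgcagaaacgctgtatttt
TRBV15-TRBJ2-1, dataset 2: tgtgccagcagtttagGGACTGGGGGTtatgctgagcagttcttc
TRBV16-TRBJ2-7, without uveitis: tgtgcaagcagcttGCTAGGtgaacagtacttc
The TRBV15 chain of dataset 1 encodes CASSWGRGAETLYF, with 9 bases in capitals, and that of dataset 2 encodes a CDR3β of 15 residues with 11. The TRBV16 chain encodes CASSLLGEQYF and has 6.

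The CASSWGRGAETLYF chain was the most frequent member chain, and it was found in 13 cells of dataset 1, always with 1 nucleotide sequence. In 7 cells the TRA was TRAV16N-TRAJ15 (CDR3α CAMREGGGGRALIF), which is the expanded clonotype, and in 1 cell it was TRAV9-2-TRAJ33 (CDR3α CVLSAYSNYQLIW). The remaining 5 cells had no productive TRA. The TRB rested on 12 to 41 UMIs (unique molecular identifiers, which count transcripts) in the 7 cells and on 5 to 23 in the 5 cells, so the ranges overlapped. The TRA of the 7 cells rested on 2 to 9 UMIs, with a median of 3.

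Contigs outside the rule differed between these cells. A TRB contig with TRBJ2-7 and no V gene was present in 5 of the 7 cells of the clonotype and in 0 of the other 6 cells, against 32 of all 212 barcodes of dataset 1 (15.1%). A non-productive TRAV12-3-TRAJ38 contig with 1 CDR3 was present in 2 of the 5 cells without a productive TRA, and in no other cell of dataset 1.

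In the paired cells of these libraries the top β chain beside the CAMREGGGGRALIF α chain was always of TRBV15, in 9 cells of dataset 1, and 1 of the 9 also held a productive TRBV13-3 contig on fewer UMIs. Besides the 7 cells above, 1 cell joined it to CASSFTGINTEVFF (TRBJ1-1) and 1 to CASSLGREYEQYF (TRBJ2-7), with the same α nucleotides in all. The α chain rested on 4 UMIs in the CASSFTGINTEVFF cell and on only 1 UMI in the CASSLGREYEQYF cell. It was paired with 3 different β chains, written with the same marks.
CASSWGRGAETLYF: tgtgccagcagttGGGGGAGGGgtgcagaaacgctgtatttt
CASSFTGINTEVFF: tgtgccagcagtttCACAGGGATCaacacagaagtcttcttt
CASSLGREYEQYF: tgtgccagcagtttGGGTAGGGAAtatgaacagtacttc
The shared CDR3α was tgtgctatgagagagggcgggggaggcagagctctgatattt, in lower case throughout because no germline split was made for α chains. The 3 β chains share the V gene and no J gene.

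Other TRBV15 chains of dataset 1 also recurred with new partners. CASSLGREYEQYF was found a second time with TRAV10-TRAJ37 (CDR3α of 14 residues, on 2 UMIs). The α chain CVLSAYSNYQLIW, with the same nucleotides, was found with the TRBV15 chain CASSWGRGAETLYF and with the TRBV16 chain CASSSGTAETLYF. It was assigned to TRAV9-2, on 8 UMIs, in the TRBV15 cell and to TRAV9-4, on only 1 UMI, in the TRBV16 cell. The α chain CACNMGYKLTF (TRAV7D-3) was with the TRBV15 chain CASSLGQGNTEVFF in 1 cell and with the TRBV3 chain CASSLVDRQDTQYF in 3. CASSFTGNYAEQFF was in 1 paired cell and in 1 cell without a TRA.

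Over dataset 1, the CDR3β of 4 of the 17 member clonotypes was found with more than 1 α chain (23.5%, 6.81 to 49.9%), against 49 of 121 clonotypes of all other TRBV genes (40.5%, 31.7 to 49.8%). The CDR3α of 6 of the 17 was found with more than 1 β chain (35.3%, 14.2 to 61.7%), against 24.8% (17.4 to 33.5%). Both pairs of intervals overlapped. In dataset 2 both counts were 0 of 9 for the members, which allows up to 33.3%, against 27 and 22 of 133 for the other genes (20.3 and 16.5%). Without uveitis the β share of the members was the higher, with 6 of 43 (14.0%, 5.30 to 27.9%) against 8.42% (5.80 to 11.7%), and the α shares were 2.33% (0.0589 to 12.3%) and 3.26% (1.70 to 5.63%).

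In dataset 2 the expanded TRBV15 clonotype joined the 15-residue CDR3β above to TRAV12D-2-TRAJ23 (CDR3α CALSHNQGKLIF) in 4 cells, with a TRB on 18 to 33 UMIs. A second TRBV15 clonotype, in 1 cell, had a CDR3α of the same amino acids and a different CDR3β, of 16 residues and joined to TRBJ2-2. The α chains of these clonotypes differed at 1 base, C12T, counted from the first base of the cysteine codon, with the expanded clonotype's base first. The other TRBV15 chains of paired cells of dataset 2 were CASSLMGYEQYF, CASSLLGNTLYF and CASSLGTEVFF, each in 1 cell, and a chain of 15 residues with TRBJ1-3 was in a cell without a TRA.

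Without uveitis each of the 13 TRBV15 clonotypes was in 1 cell. Among them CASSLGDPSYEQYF (TRBJ2-7) was found with 1 nucleotide sequence in 2 cells and with 2 α chains, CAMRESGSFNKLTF (TRAV16N) and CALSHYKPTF (TRAV12D-2). The CDR3α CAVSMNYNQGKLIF was found with the TRBV15 chain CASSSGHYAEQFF and with a TRBV5 chain. The TRBV15 chains of this library carried 3 CDR3β that began with only part of CASS: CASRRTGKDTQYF, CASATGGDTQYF and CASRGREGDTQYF.

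TRBV16 held the 1 CDR3β amino acid sequence of the members that was found in more than 1 library. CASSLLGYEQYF with TRBJ2-7 was in 1 cell of dataset 2 (TRB 11 UMIs, TRA 12) and in 1 cell without uveitis (TRB 18 UMIs, TRA 5). Both cells had the α chain TRAV12D-2-TRAJ18 (CDR3α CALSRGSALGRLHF), with identical nucleotides.
Dataset 2, CDR3β: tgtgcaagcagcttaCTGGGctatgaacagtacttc
Without uveitis, CDR3β: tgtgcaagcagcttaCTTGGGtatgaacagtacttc
Both, CDR3α: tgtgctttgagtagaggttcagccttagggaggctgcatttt
The β sequences differed at 2 of 36 bases, G18T and C21G, with the base of dataset 2 first. Both changes are within or next to the bases in capitals, and the cells had different barcodes. The 2 cells therefore shared a receptor by amino acids and not by β nucleotides. Another pair of CDR3α amino acid sequences of member cells was found in more than 1 library, with different nucleotides and other β chains each time. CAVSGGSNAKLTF (TRAV9D-1) was with the TRBV15 chain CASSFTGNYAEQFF in dataset 1 and with a TRBV4 chain in dataset 2. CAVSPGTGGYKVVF was with the TRBV14 chain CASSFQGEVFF without uveitis and with a TRBV13-2 and a TRBV20 chain in dataset 1, under TRAV7N-6 and TRAV3D-3.

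A chain 1 residue shorter, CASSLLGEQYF with TRBJ2-7, was in 3 cells without uveitis under 2 nucleotide sequences. The expanded clonotype had it with TRAV12-2-TRAJ35 (CDR3α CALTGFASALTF) in 2 cells, with a TRB on 16 and 26 UMIs. The third cell had it with TRAV16N-TRAJ38, on 47 UMIs, and with the bases that follow.
TRBV16-TRBJ2-7, the cell with TRAV16N: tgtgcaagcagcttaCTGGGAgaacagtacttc
The sequences differed at 3 of 33 bases (G15A, A18G and T21A, with the expanded clonotype's base first). One of the 2 cells of the expanded clonotype held a second TRB of TRBV19, and Cell Ranger placed the 2 cells in different clonotypes.

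CDR3β that began with CASSLLG were thus found in 4 of 29 TRBV16 clonotypes (13.8%) and in 2 of 28 TRBV15 clonotypes (7.14%), against 2 of 622 clonotypes of all other TRBV genes (0.322%). This is a description, since the motif was noticed in these values.

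The longer untrimmed start was frequent in TRBV16. The whole germline end was kept in 8 of 29 TRBV16 clonotypes (27.6%), against 1 of 28 for TRBV15, 1 of 6 for TRBV14 and 1 of 6 for TRBV17. Accordingly 6 TRBV16 clonotypes began with CASSLE and 2 with CASSLD, against 6 and 2 of 622 clonotypes of all other genes. CASSLE began 5 of 21 TRBV16 clonotypes without uveitis, 1 of 5 in dataset 1 and 0 of 3 in dataset 2. In 1 of these chains, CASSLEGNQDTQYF without uveitis, the same amino acids were also encoded by a TRBV29 rearrangement.
TRBV16-TRBJ2-5: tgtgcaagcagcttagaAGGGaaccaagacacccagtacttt
TRBV29-TRBJ2-5: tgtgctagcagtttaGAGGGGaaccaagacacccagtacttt
These cells had different α chains. Another TRBV16 chain starting with CASSLE, of 15 residues and with TRBJ2-2, was found with 1 nucleotide sequence in 2 cells and with 2 α chains (TRAV14N-1-TRAJ37 and TRAV6-3-TRAJ17).

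CASSR, the start that the germline encodes, began all 6 paired TRBV17 clonotypes, against 19 of 622 clonotypes of all other genes (3.05%). The TRBV17 contig that was the weaker of its cell's TRB contigs began with CASRR. The 4 without uveitis included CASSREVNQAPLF (TRBJ1-5), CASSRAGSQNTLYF (TRBJ2-4) and 1 chain of 15 residues with TRBJ2-7, which was in 2 cells with 2 different α chains.
TRBV17-TRBJ2-7: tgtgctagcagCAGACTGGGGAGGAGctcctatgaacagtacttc
The germline match of this chain ended before the arginine codon, which lies in the capitals. Its α partners were TRAV7-3-TRAJ45 and TRAV13-2-TRAJ2, on 30 and 44 UMIs, and the TRB rested on 80 and 67 UMIs. The other TRBV17 clonotypes were 1 in dataset 1 (15 residues) and 1 in dataset 2 (17 residues), both with TRBJ2-5.

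TRBV14 began with CASSF, its germline start, in 3 of 6 clonotypes, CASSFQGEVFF, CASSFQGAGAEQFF and a 16-residue chain of dataset 1. The others without uveitis were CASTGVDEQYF, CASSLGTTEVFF and a chain of 15 residues that began with CASSH. TRBV15 began with CASSL in 16 of 28 clonotypes (57.1%) and TRBV16 in 18 of 29 (62.1%), against 82 of 622 (13.2%) of all other genes. TRBV15 was more often followed by glycine, with CASSLG in 11 of 28 clonotypes against 1 of 29 for TRBV16. These numbers count clonotypes, so a β chain found with more than 1 α chain was counted more than once.

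The member clonotypes used 10 TRBJ genes, and over the 3 libraries TRBJ2-7 was the most frequent partner of TRBV15 (6 of 28 clonotypes) and of TRBV16 (7 of 29). Within libraries the leading partner of TRBV15 was another, TRBJ2-3 in dataset 1 (3 of 10 clonotypes and 9 of 16 cells) and TRBJ2-5 without uveitis (4 of 13 clonotypes), and in dataset 2 each of 5 TRBJ genes had 1 clonotype. TRBV14 was joined most often to TRBJ1-1 and TRBJ2-3, in 2 clonotypes each. TRBV17 was joined most often to TRBJ2-5 and TRBJ2-7, in 2 each, and the TRBJ2-7 clonotypes of TRBV17 share 1 β chain. TRBJ2-7 is also the most frequent TRBJ of all other TRBV genes, with 124 of 622 clonotypes (19.9%).

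In dataset 1 TRBJ2-3 was in 5 of the 17 member clonotypes, or 29.4% (10.3 to 56.0%), against 5 of 121 of the other genes, or 4.13% (1.36 to 9.38%), and the intervals did not overlap. The 5 clonotypes were of TRBV14 (1), TRBV15 (3) and TRBV16 (1), and 2 of them share the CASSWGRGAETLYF chain. In dataset 2 TRBJ2-3 was in 1 of 9 member clonotypes (11.1%, 0.281 to 48.3%) against 6.02% (2.63 to 11.5%), with overlapping intervals. Without uveitis it was in 2 of 43 (4.65%) against 5.98%. TRBJ2-3 was singled out once its values were known.

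The TRBJ2 cluster was used by 54 of 69 member clonotypes, or 78.3% (66.7 to 87.3%), against 68.0% (64.2 to 71.7%) of the others. In dataset 1 it was 82.4% (56.6 to 96.2%, 14 of 17) against 76.0% (67.4 to 83.3%), in dataset 2 77.8% (40.0 to 97.2%, 7 of 9) against 74.4% (66.2 to 81.6%), and without uveitis 76.7% (61.4 to 88.2%, 33 of 43) against 63.0% (57.9 to 68.0%). The member value was the higher in each library, and the intervals overlapped in each. TRBJ1-2 and TRBJ1-6 were in 0 of the 69 member clonotypes, against 4.98 and 2.57% of the other clonotypes. The limit of 3 counts for such a 0 is 4.35%. It is lower than the upper end of an exact interval, so the 0 of TRBJ1-2 is not read as a lower share.

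**Figure D3:**
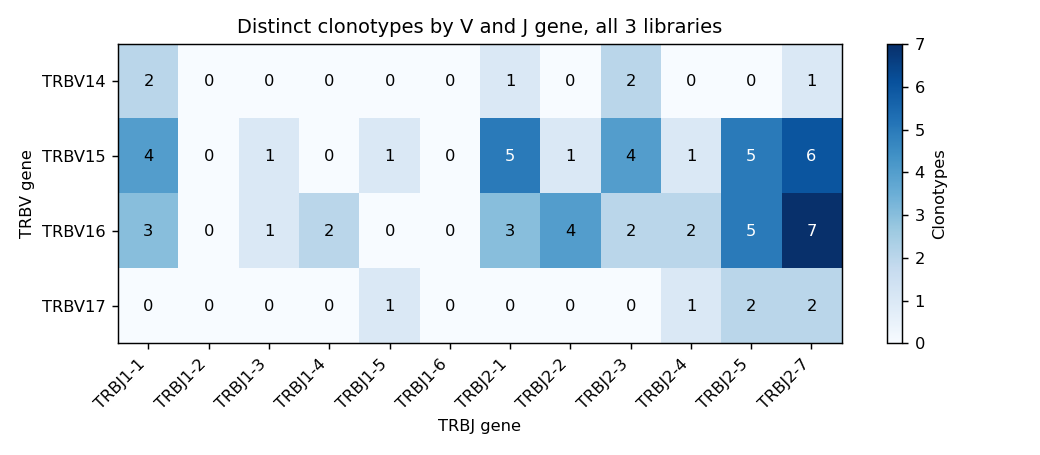
Numbers of distinct clonotypes for each combination of member TRBV gene (rows) and TRBJ gene (columns), summed over the 3 libraries. The darkest cells are TRBV16 with TRBJ2-7 (7 clonotypes) and TRBV15 with TRBJ2-7 (6), and the columns TRBJ1-2 and TRBJ1-6 hold 0.

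CDR3β of the members was 14.3 ± 0.985 residues long in dataset 1 (SD, 17 clonotypes), 13.6 ± 2.19 in dataset 2 (9 clonotypes) and 13.4 ± 1.45 without uveitis (43 clonotypes). The other TRBV genes gave 14.2 ± 1.42, 14.0 ± 1.55 and 13.8 ± 1.48, so the differences were well within the spread between clonotypes. Short CDR3β were counted as those of 12 residues or fewer, a cutoff that was not among the planned comparisons. None of the 17 member clonotypes of dataset 1 was short (0%, 0 to 19.5%), against 10 of 121 of the other genes (8.26%, 4.03 to 14.7%), which overlapped. In dataset 2, 5 of 9 were (55.6%, 21.2 to 86.3%), against 12.8% (7.63 to 19.7%) of the other clonotypes there, and these intervals did not overlap. The remaining 4 of the 9 were long, with 15 residues or more (44.4%, against 32.3% of the other clonotypes). Without uveitis 10 of 43 were short, with 12 residues or fewer (23.3%, 11.8 to 38.6%), against 17.4% (13.7 to 21.7%).

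By gene, mean length over the 3 libraries ran from 13.2 ± 2.14 residues for TRBV14 (6 clonotypes) through 13.4 ± 1.38 for TRBV16 (29) and 13.8 ± 1.42 for TRBV15 (28) to 14.8 ± 1.33 for TRBV17 (6). No neighbours in this order differed beyond their SD. The shortest chains had 11 residues, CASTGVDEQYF and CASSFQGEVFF for TRBV14, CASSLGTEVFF for TRBV15 and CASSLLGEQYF for TRBV16, and the shortest of TRBV17 had 13 (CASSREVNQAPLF). The longest had 16 residues for TRBV14 and TRBV16, 17 for TRBV17 and 18 for TRBV15, the last in a TRBJ1-5 chain without uveitis.

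**Figure D4:**
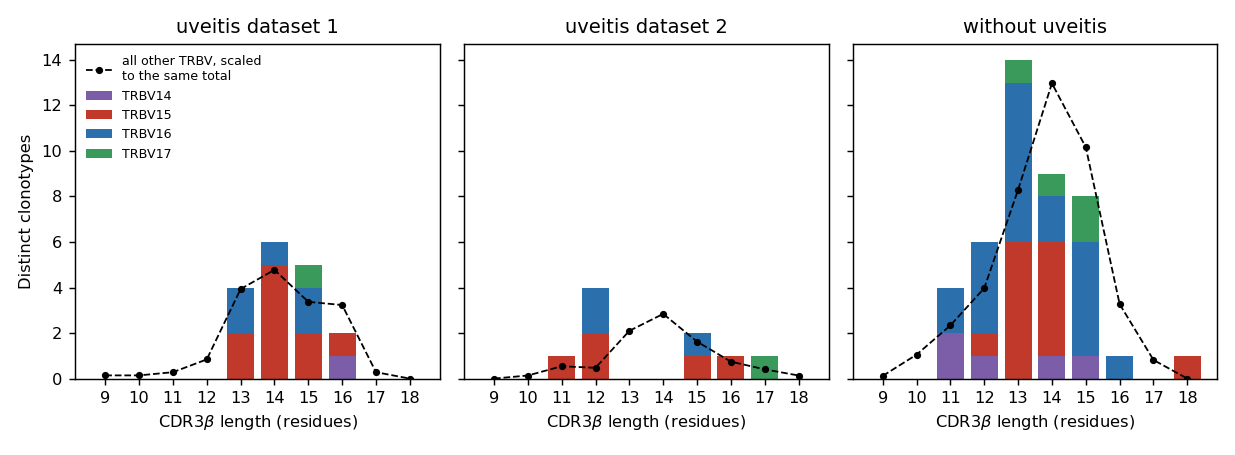
Distinct member clonotypes by CDR3β length in residues, stacked by V gene, in each library. The dashed line is the distribution of all other TRBV genes in that library, scaled to the same total. In dataset 2, 5 of 9 member clonotypes have 11 or 12 residues and 4 have 15 or more. In dataset 1, none of 17 has 11 or 12.

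The bases between the V and J matches numbered 10.2 ± 3.40 (SD over clonotypes) for the members in dataset 1, 8.0 ± 3.78 in dataset 2 and 9.49 ± 4.62 without uveitis. For all other TRBV genes the values were 11.3 ± 5.60, 11.8 ± 4.82 and 10.9 ± 5.0. The member mean was the lower in each of the 3 libraries, by less than the SD of the other genes each time. In dataset 2 the difference slightly exceeded the SD of the members. TRBV16 had the fewest of these bases, 8.62 ± 4.61, and TRBV17 the most, 11.7 ± 5.35 in 6 clonotypes. The CDR3 of 1 TRBV16 clonotype (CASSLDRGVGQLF) had no J match of 6 bases or more, so all its 22 bases after V were counted, which overstates it. Chance matches at the ends lower the count of the other clonotypes.

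The α partners were varied, with 28 TRBV15 clonotypes joined to 22 TRAV genes and 29 TRBV16 clonotypes to 25. TRAV16N was the most frequent partner of TRBV15, in 4 clonotypes (14.3%), of which 3 were the dataset 1 clonotypes with the shared α chain. For TRBV16 the most frequent were TRAV12-2, TRAV12D-2, TRAV4N-4 and TRAV7-4, in 2 clonotypes each. The 6 TRBV14 clonotypes had TRAV4-4-DV10, TRAV14-2, TRAV6-7-DV9, TRAV7N-6, TRAV9N-4 and TRAV13N-1. The 6 TRBV17 clonotypes had TRAV13-1, TRAV4N-4, TRAV7-3, TRAV13-2, TRAV6-6 and TRAV6-1. Many of these TRAV genes have near-identical D and N copies, so the exact copy is uncertain.

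By TRAV family, TRAV7 was in 11 of the 69 member clonotypes (15.9%), TRAV12 in 10 (14.5%) and TRAV4 in 8 (11.6%), against 12.9, 11.4 and 7.88% of all other clonotypes. The TRAV9 family, the most frequent partner of the other genes (113 of 622, or 18.2%), was in 6 member clonotypes (8.70%). In dataset 1, however, it led the members too, with 4 of 17 (23.5%) against 24.8% of the others, while in dataset 2 it was in 1 of 9 (11.1%) against 30.8% and without uveitis in 1 of 43 (2.33%) against 11.4%. TRAJ37 and TRAJ15 led the TRAJ partners of TRBV16 with 4 and 3 clonotypes, and TRAJ15 and TRAJ23 those of TRBV15 with 3 each.

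A CDR3β of the same length and 1 residue apart, in any library and with any V gene, was found for 8 of 30 TRBV16 entries (each a different CDR3β of a library), or 26.7% (12.3 to 45.9%). It was found for 4 of 29 TRBV15 entries (13.8%), 1 of 7 TRBV14 entries and 0 of 6 TRBV17 entries, against 10.9% (8.56 to 13.7%) of those of all other genes. All these neighbours used another V gene than the member, and 1 pair joined TRBV16 and TRBV15. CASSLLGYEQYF of TRBV16 was 1 residue, at position 6, from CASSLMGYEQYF of TRBV15 in dataset 2. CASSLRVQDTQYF of TRBV16 was 1 residue from a TRBV12-1 chain in the same library, dataset 1, and from a TRBV26 chain without uveitis.

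By median, TRB contigs of the members rested on more UMIs per cell than those of the other genes in each library. The median was 17 in dataset 1 against 11, 18 in dataset 2 against 10, and 21 without uveitis against 15. Cells with the same chain weigh on these medians. In dataset 1, 13 of the 30 member cells carried the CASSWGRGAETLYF chain, with a median of 19 UMIs. In dataset 2, 4 of the 13 were the expanded clonotype, on 18 to 33 UMIs. The ranges overlapped almost fully, from 5 to 41 against 1 to 47 in dataset 1, from 5 to 33 against 1 to 99 in dataset 2 and from 1 to 86 against 1 to 114 without uveitis. TRBV17 without uveitis was the extreme, with 11, 67, 80 and 86 UMIs in its 4 cells, and 2 of these cells share a β chain. The lowest was a TRBV16 contig on 1 UMI. The TRA of member cells had medians of 4, 6 and 8.5 UMIs against 5, 4 and 7 in the other cells, so the higher TRB value did not come with a higher TRA value in dataset 1.

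No productive TRA was found in 7 of 30 member cells of dataset 1 (23.3%, 9.93 to 42.3%), against 10.5% (6.36 to 16.1%) of the cells with other TRBV genes. All 7 were TRBV15 cells, and 5 of them carried the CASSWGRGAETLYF chain. In dataset 2 it was 1 of 13 (7.69%) against 9.83%, and without uveitis 5 of 49 (10.2%, 3.40 to 22.2%) against 4.91% (3.10 to 7.34%). The intervals overlapped in each library. With cells lacking a TRA counted, TRBV15 took 11.4% (7.39 to 16.7%, 23 of 201) of the cells of dataset 1 that had a TRB.

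**Figure D5:**
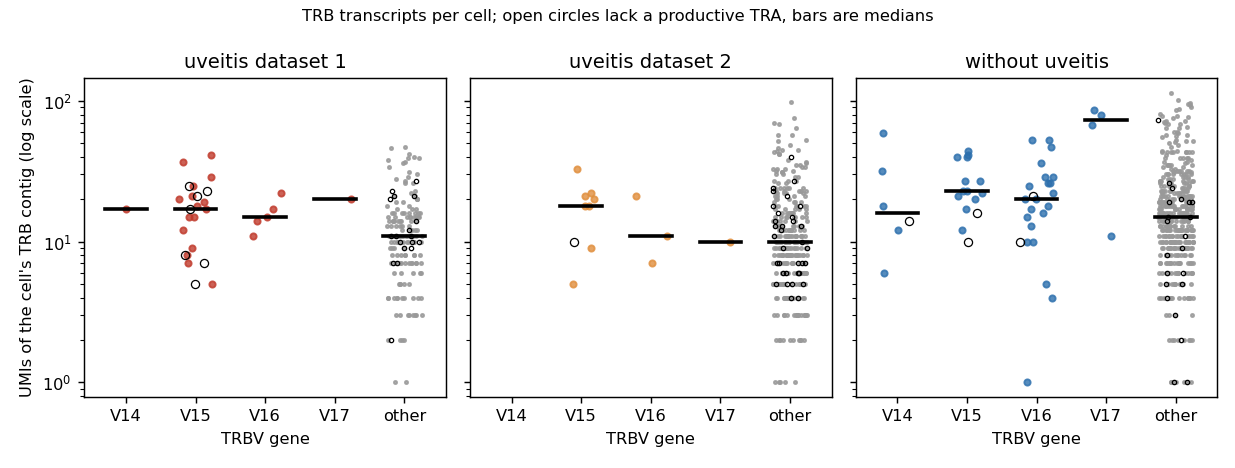
UMIs of the TRB contig of each cell (log axis) for the 4 member genes, written V14 to V17, and all other TRBV genes in each library. Filled points are cells with a productive TRA, open circles cells without one, and bars medians. In dataset 1 all 7 open circles of the members are TRBV15 cells.

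In 6 cells a member contig stood beside a second productive TRB. The member had the more UMIs in 5 of them, at 18 against 10 and 17 against 4 in dataset 1 and at 86 against 49, 16 against 8 and 10 against 6 without uveitis. In the last of these both chains were members, TRBV15 (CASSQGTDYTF) and TRBV16, and no TRA was found. In the sixth cell, TRBV17 had 7 UMIs beside a TRBV13-1 chain (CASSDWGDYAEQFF) with 17. Such droplets were kept and counted by the contig with the most UMIs.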

How the data were processed

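The series lists 6 samples, of which the 3 TCR libraries were analysed and the mRNA libraries were not used here. Per the labels, the libraries were made with 10x Genomics 5′ chemistry. The authors assembled the reads of each cell into contigs with Cell Ranger v3 on its mouse VDJ reference (GRCm38, also called mm10). The deposited values used are whole-number counts of reads and UMIs per contig, without normalization, with V, D and J gene and CDR3 of each contig. The members, lists and comparisons were chosen with earlier results of these data known.

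Cells with a productive TRA and a productive TRB were counted once each, by the contig of each chain with the most UMIs, then the most reads. A clonotype was the set of cells of a library that matched in the V gene, the J gene and the CDR3 nucleotides of TRA and TRB, and it was called expanded when it held more than 1 cell. Droplets with more than 1 cell were not removed. Depth was 5302 (dataset 1), 7439 (dataset 2) and 21408 (without uveitis) UMIs in all contigs, and it limits a share of paired cells to steps of 1 in 176, 324 and 470. Shares carry Clopper-Pearson 95% intervals, and the limit given for a count of 0 is that of 3 counts. That limit is lower than the upper end of the exact interval. No test between conditions was made.

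Retained germline bases were read from GENCODE vM21 transcripts, a copy that may differ from the authors' reference. V bases were matched from the cysteine codon on and J bases from the other end, with a J match of at least 6 bases. V exons were compared by global alignment. Named were the 4 genes, for each the TRBV gene of most similar clonotype shares, the leading TRBJ and TRAV partners, expanded clonotypes, chains found with several partners or in several libraries, the shortest and longest CDR3β, and cells with 2 TRB contigs. Neighbours 1 residue apart, the CASSLLG motif, TRBJ2-3, chains without TRA and other single chains were chosen for naming once the values were known. The counting steps recovered 9 of 9 values of a simulated contig table. Alternatives were other clonotype definitions, UMI minimums of 2 and 3, only cells with 1 TRA and 1 TRB, every TRB contig, cells without a TRA, and each uveitis library left out. Python 3.11.15, pandas 2.3.3, scipy 1.17.1, Biopython 1.88 and matplotlib 3.10.9 were used.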

Additional observations from a re-analysis of the deposited data

Results flagged for a closer look

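Contigs that carry a member V gene but are not productive were outside the comparisons. In dataset 2 they were 4 of 17 member TRB contigs, or 23.5% (6.81 to 49.9%), above the 10.5% (3.96 to 21.5%, 6 of 57) without uveitis, with overlapping intervals. They were 2 contigs of TRBV16, 1 of TRBV14 and 1 of TRBV17, on 2 to 4 UMIs, and none had a CDR3. In dataset 1 they were 3 of 33 (9.09%). The difference was not tested.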

How the results depend on the processing

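No paired analysis was possible because the libraries of the conditions share only a number and no test was made. Of 204 recomputed values, 197 stayed within the interval of the reported value, or within the SD of the pools for the combined uveitis libraries. The 15 values of the combined libraries carry no information on stability. With 2 pools of these sizes, neither leaving 1 out nor the unweighted mean can move a share beyond that SD. Kept to cells with 1 TRA and 1 TRB, TRBV14 took 0% of dataset 1, its 1 cell having a second TRB. At a minimum of 3 UMIs, TRBV17 took 0% of dataset 2. The expanded share of the members without uveitis was 18.2% by TRB alone, 0% by Cell Ranger clonotypes and 0% in cells with 1 TRA and 1 TRB, so its 1 expanded clonotype rests on the definition. Over every cell with a TRB and by TRB alone, an alternative added after seeing the data, it was 56.7% in dataset 1 and 16.3% without uveitis. Leaving out the largest member clonotype of each library was also added then. For the combined uveitis libraries, 1 library decides the shares. TRBV15 was 4.80%, and 2.47 to 9.09% with 1 library left out (2.47% without dataset 1). TRBV16 was 1.60% and ran from 0.926 to 2.84%, TRBV14 0.20% and from 0 to 0.568%, TRBV17 0.40% and from 0.309 to 0.568%, and the 4 genes together 7.0% and from 3.70 to 13.1%, the lower value without dataset 1 each time. With 0 to 22 paired cells per gene and library, counting error limits every comparison between the genes.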

Other observations

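All 94 member contigs were assigned the constant gene TRBC1, including the 76 joined to TRBJ2 segments, which lie upstream of TRBC2 in the locus. The constant gene was therefore not used in any count.

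A non-productive TRBV16-TRBJ1-2 contig with a CDR3 of 51 bases was found with the same nucleotides in 2 cells without uveitis, on 2 UMIs each. Other non-productive TRBV16 contigs of that library reached 46 UMIs.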
